A study of Mus musculus with 2 samples.

Results

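The droplets described here carried the RNA of mature fast muscle fibres in which Myh4 led the adult fast myosins. They were 297 of the 4954 cell barcodes in 2 single-cell RNA-seq libraries, 288 of 1100 in the sham library and 9 of 3854 in the MOV library. A droplet was a member when fewer than 20% of its UMIs (unique molecular identifiers, each standing for 1 captured transcript) came from the mitochondrial genome and Acta1 and Ckm together took at least 2% of them. It also had to hold at least 3 UMIs of Myh1, Myh2 and Myh4, more than of the embryonic genes Myl4 and Myh3, with Myh4 above Myh1 and above Myh2. Droplets that met the same limits but were led by Myh1 (135 sham, 15 MOV) or by Myh2 (52 sham, 8 MOV) served for comparison, and ties (6 sham, 1 MOV) were left out. The levels of these genes chose the members, and they are given as a description only.

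The libraries came from cells of the plantaris, a fast muscle of the lower hind limb, 1 library per surgery. The Pax7rtTA; TRE-H2B-GFP mice were 26 weeks old in both groups and had drunk doxycycline at 2.0 mg/mL for 2 weeks. In this strain the Pax7 promoter drives the rtTA activator, so that doxycycline switches on the nuclear H2B-GFP label in MuSCs, and nothing in the design labels fibres. The MOV group underwent synergist ablation, in which the distal tendon of the gastrocnemius and part of the soleus are taken out so that the plantaris is mechanically overloaded, and the sham group had the incision with the tendon probed and nothing removed. Muscles were taken 5 days after surgery and dissociated with enzymes, and the sort kept cells that were positive for VCAM and negative for the endothelial, blood and SCA1 surface markers. The labels speak of a single mouse where the methods of the study describe a group of mice, so whether animals were pooled in a library cannot be told from the sources used here.

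Mammalian fast fibres are classed by the myosin heavy chain they express. Myh2 encodes the type IIa chain of fatigue-resistant oxidative fibres, Myh1 the IIx chain, and Myh4 the IIb chain of the fastest and most glycolytic fibres, which dominate superficial regions of mouse fast muscles. Type IIb fibres shorten and relax quickly, refill ATP mainly from glycogen and creatine phosphate, and hold little myoglobin and few mitochondria, whereas the slower types rely more on oxygen and fatty acids.

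The sham matrix held 7302661 UMIs and the MOV matrix 88498487 UMIs. The sham members held 1763877 UMIs in all, at 3386.5 UMIs and 926.5 detected genes in the median droplet, and the Myh1-dominant and Myh2-dominant sham droplets held 864916 and 447121 UMIs (medians 4300 and 5470). The mitochondrial share was 2.08% in the median sham member, against 2.07% and 1.55% in the other classes. Although the labels call the cells muscle stem cells, no sham member held a UMI of Pax7 or of Vcam1, the sorted surface protein. For Pax7 this allows a level of up to 2.09 CPM (UMIs of a gene per 1000000 UMIs of the class), against 68.2 CPM in the 281 sham droplets in which Acta1 and Ckm took less than 2% of UMIs, called the non-fibre droplets here.

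The libraries share 44 cell barcodes, and this touches the MOV members most. Of the 9 MOV members, 8 have a barcode that also occurs in the sham library, where it marks a deep fibre droplet (7 Myh4-dominant and 1 Myh1-dominant, with 19330 to 47168 UMIs). Their MOV counterparts were small, with 526 to 952 UMIs, which is 2.02% to 3.54% of the sham droplet's total. Between 82.3% and 97.9% of the genes seen in such a MOV droplet were also seen in the sham droplet with its barcode, against a median of 81.6% (69.9% to 95.5%) in the other sham members of at least 15000 UMIs. The remaining MOV member, with 7877 UMIs, has a barcode of its own. Where the RNA of the 8 droplets came from was not tested. For the MOV results that rest on them, the value without the shared barcodes is given beside the value with them, and it then rests on 1 member. In the sham library 13 members have a shared barcode, each deeper than its MOV counterpart.

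With 1 library per condition and with classes formed from the counts themselves, no test was made. UMIs of a gene were summed over the droplets of a class and scaled to CPM, and classes were compared as the log2 ratio of these levels. All intervals are exact 95% intervals and cover counting error only, not the spread between droplets or animals. Values are from the sham library unless MOV is named.

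Myh4 accounted for nearly all adult fast myosin RNA in the members. Over the 288 sham members there were 11415 UMIs of Myh4, 644 of Myh1 and 5 of Myh2. In 184 members Myh4 was the only myosin of the 3 with a UMI, 102 held a Myh1 UMI, and 3 held a Myh2 UMI. The Myh4 share of the 3 myosins had a lower quartile of 96.0% and a median of 100%, and it was lowest at 50.7%. In 28 members Myh1 made up at least 20%. The members just inside the limits were 10 with exactly 3 myosin UMIs and 4 in which Myh4 led by 1 UMI. The lowest Acta1 and Ckm share of a member was 2.11% and the highest mitochondrial share 16.6%. Just outside lay 77 droplets with fewer than 3 myosin UMIs, 7 that missed only the Acta1 and Ckm minimum with at most 0.530%, and 4 that missed only the mitochondrial limit with 23.8% to 44.1%.

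**Figure D1:**
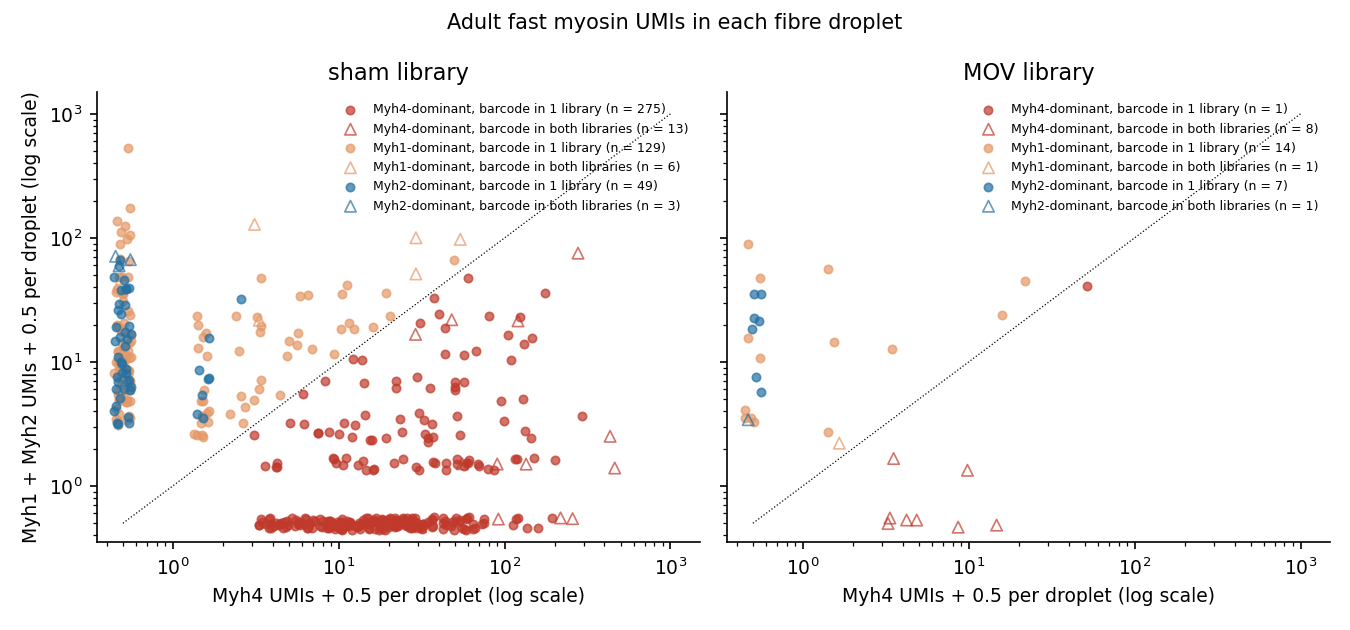
Each point is a fibre droplet, with its Myh4 UMIs plus 0.5 on the x axis and its Myh1 and Myh2 UMIs plus 0.5 on the y axis (log scales, slightly jittered), sham on the left and MOV on the right. Colors mark the leading myosin, triangles mark barcodes found in both libraries, and the dotted line marks equal values. Most of the 288 sham members lie along the bottom with no Myh1 or Myh2 UMI, and 8 of the 9 MOV members are triangles.

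Members made up 60.6% (56.1% to 65.1%, Clopper-Pearson) of the 475 sham droplets in the 3 myosin classes. In the MOV library they were 9 of 32 (28.1%, 13.7% to 46.7%). Without the shared barcodes the sham share was 275 of 453 (60.7%, 56.0% to 65.2%) and the MOV share 1 of 22 (4.55%, 0.115% to 22.8%), so that the MOV value depends on 8 droplets while the sham value hardly moved. The cells had passed filters and a sort for stem cells, which can set these shares.

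The 4 marker genes that the choice of members did not use were all highest in the Myh4-dominant class. They were listed as its markers with earlier results of these data known, so their order is a description and not independent support. Pvalb, which encodes the cytosolic calcium buffer parvalbumin that speeds relaxation, was at 6651 CPM (6531 to 6772) in members, at 2137 CPM (2040 to 2236) in Myh1-dominant droplets, at 110 CPM (81.1 to 145) in Myh2-dominant droplets and at 29.2 CPM in non-fibre droplets. Per droplet, the median Pvalb level of members was 6010 CPM (quartiles 4261 and 8080), above the upper quartile of 2996 CPM in Myh1-dominant droplets. The log2 ratio was 1.64 (1.57 to 1.71) over the Myh1-dominant and 5.92 (5.52 to 6.36) over the Myh2-dominant class.

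Actn3 encodes the alpha-actinin of fast Z-discs. It was at 3539, 1037, 8.95 and 39.0 CPM in the Myh4-dominant, Myh1-dominant, Myh2-dominant and non-fibre droplets, with log2 ratios of 1.77 (1.67 to 1.87) and 8.63 (7.27 to 10.5). Mybpc2, the fast myosin-binding protein C, was at 1248, 425, 13.4 and 6.88 CPM in the same order (log2 ratios 1.55, 1.39 to 1.71, and 6.54, 5.42 to 7.99). Mss51, a zinc-finger gene whose loss is known to raise oxidative metabolism in muscle, was at 880 and 171 CPM in Myh4-dominant and Myh1-dominant droplets, and it had a single UMI among the Myh2-dominant droplets. Its log2 ratios were 2.36 (2.12 to 2.61) and 8.62 (6.14 to 13.9). Summed UMIs weigh deep droplets most. By the mean of single-droplet CPM the log2 ratios over Myh1-dominant droplets were smaller, at 1.51 for Pvalb, 1.65 for Actn3, 1.39 for Mybpc2 and 1.82 for Mss51. Over Myh2-dominant droplets those of Pvalb and Actn3 were 5.10 and 6.69. Between Myh2-dominant and non-fibre droplets Pvalb differed beyond counting error (81.1 to 145 against 23.4 to 35.9 CPM). The intervals overlapped for Mybpc2 (6 UMIs, 4.92 to 29.2 against 4.26 to 10.5 CPM) and Mss51, and Actn3 was lower in Myh2-dominant droplets (2.44 to 22.9 against 32.3 to 46.7 CPM).

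The order of the classes held when every droplet was thinned to 1000 UMIs, which left out 39 members, 15 Myh1-dominant, 5 Myh2-dominant and 8 non-fibre droplets that were shallower. Pvalb then had a UMI in 98.0% of 249 members (99.0% unthinned), 72.5% of 120 Myh1-dominant, 8.51% of 47 Myh2-dominant and 4.03% of 273 non-fibre droplets, the last with a median depth of 7913 UMIs before thinning. The corresponding shares were 95.6%, 55.8%, 0% (up to 7.55%) and 4.40% for Actn3 (98.6% of members unthinned). For Mss51 they were 55.4%, 20%, 2.13% and 0.366% (83.3% of members unthinned). For Mybpc2 they were 67.9%, 34.2%, 4.26% and 0.733% (91.3% of members unthinned). The exact intervals of the thinned shares overlapped between Myh2-dominant and non-fibre droplets for all 4 genes, and a difference between these droplets in such shares was not detectable at this depth.

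Across all genes with at least 20 UMIs over both classes, leaving out mitochondrial genes and those that chose the classes, 4.67% of 5273 genes were at least 2-fold higher in members than in Myh1-dominant droplets (246 genes) and 6.35% at least 2-fold lower (335 genes). Over Myh2-dominant droplets, 12.9% of 4876 genes were at least 2-fold higher and 12.9% lower (631 genes each). These shares and the medians over all genes, a log2 ratio of -0.05 and of -0.08, are the background for the gene lists. The scaling shifted all genes together, as the offset between members and the Myh1-dominant class was -0.12 (log2) by TMM and -0.10 by the size factors of DESeq2, and -0.24 by both against the Myh2-dominant class. Removing the offset raises every ratio by its size. The calls then split into 326 higher and 249 lower (TMM) and 306 and 262 (DESeq2) against Myh1-dominant, and 867 and 404 (TMM) and 867 and 405 (DESeq2) against Myh2-dominant droplets. The median over all genes changed sign with them, to 0.06 (TMM) and 0.04 (DESeq2) against Myh1-dominant and to 0.17 and 0.16 against Myh2-dominant droplets. Of the medians given here for gene lists, that of the phosphate reserve against Myh1-dominant droplets changed sign as well. The neuromuscular junction list, not described further, went from a median of -0.20 to 0.04 (TMM) against Myh2-dominant droplets.

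All 15 fast sarcomere genes tested were above 0 against both other classes. Against Myh1-dominant droplets 2 of the 15 reached 2-fold (Actn3 and Mybpc2, median log2 ratio 0.54), and against Myh2-dominant droplets 9 did (median 1.47). The abundant thin filament genes Tnnt3 and Tpm1 stayed under 2-fold against Myh1-dominant droplets. Tnnt3, the fast troponin T that anchors troponin to tropomyosin, was at 39902, 30376 and 25973 CPM in Myh4-, Myh1- and Myh2-dominant droplets, and Tpm1, the alpha-tropomyosin of fast filaments, at 42661, 23133 and 16754 CPM. Their log2 ratios over Myh1-dominant droplets were 0.39 (0.37 to 0.41) and 0.88 (0.86 to 0.91). Larger steps towards the Myh2-dominant class were seen for Mylk4, a myosin light chain kinase, at 558, 294 and 24.6 CPM, and for Myom2, the M-band protein of fast fibres, at 160, 94.8 and 6.71 CPM.

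Slow-fibre sarcomere genes lay on the other side, with Myh7, the slow myosin itself, at 0 UMIs in all 3 classes. Myl2, the slow regulatory light chain, had 0 UMIs in members, 2 in Myh1-dominant and 477 in Myh2-dominant droplets, so that its log2 ratio over the last was -9.29 or lower, although 257 of the 477 UMIs came from 1 droplet. Myoz2, the Z-disc calsarcin of slow and cardiac muscle, was spread more evenly and was at 14.2 CPM (25 UMIs in 13 members), 220 CPM (45 droplets) and 1919 CPM (46 of 52 droplets). Its log2 ratios were -3.95 (-4.62 to -3.35) and -7.08 (-7.72 to -6.51). Tpm2, the beta-tropomyosin, differed less, at 7828, 12612 and 13301 CPM. Of the genes in this list 6 could be tested against Myh1-dominant droplets, with 2 at least 2-fold lower and none higher (median -0.78), and 9 against Myh2-dominant droplets, with 6 lower and none higher (median -4.38).

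Sarcomere genes that all striated fibres use showed no common direction, with 0 higher and 3 lower of 20 against Myh1-dominant (median -0.19) and 6 higher and 5 lower against Myh2-dominant droplets (median 0.02). The giant proteins titin (Ttn, 1078, 1087 and 443 CPM) and nebulin (Neb, 1116, 884 and 436 CPM) were near the Myh1-dominant level and more than 2-fold above the Myh2-dominant one. Actn2, the alpha-actinin of all Z-discs, ran against Actn3, at 147, 516 and 776 CPM, with log2 ratios of -1.81 (-2.03 to -1.58) and -2.40 (-2.63 to -2.16). Lmod2, a leiomodin of the thin filament, was also lower, at 125, 369 and 624 CPM.

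Of 15 genes of calcium release and uptake, 12 were above 0 and 3 below against Myh1-dominant droplets, and all 15 were above 0 against Myh2-dominant droplets. Beside Pvalb, the list had 1 more gene past 2-fold against Myh1-dominant droplets, Casq1, the calcium store protein of the fast sarcoplasmic reticulum, at 908, 442 and 179 CPM (log2 ratios 1.04, 0.88 to 1.20, and 2.34, 2.02 to 2.69). Atp2a1, the fast SERCA calcium pump, was at 4860, 3960 and 2122 CPM, and Ryr1, the release channel, at 181, 154 and 33.5 CPM with an interval against Myh1-dominant droplets that includes 0 (-0.06 to 0.54). In all, 2 of 15 genes were at least 2-fold higher than in Myh1-dominant droplets (median 0.30) and 8 of 15 than in Myh2-dominant droplets (median 1.08), with none lower. Sln and Pln, the small inhibitors of the pump, had 5 UMIs and 1 UMI in the sham members.

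Genes of glycogen use and glycolysis set the members apart from Myh2-dominant droplets and hardly from Myh1-dominant ones. Against the Myh1-dominant class 17 of 24 genes were above 0 but only Pfkfb3, with 27 and 6 UMIs, was 2-fold higher (median 0.32), and its interval includes 0 (-0.16 to 2.71). Aldoa, the muscle aldolase, was at 23453 and 20121 CPM in Myh4- and Myh1-dominant droplets and at 9642 CPM in Myh2-dominant droplets. Pygm, the muscle glycogen phosphorylase, was at 1808, 1207 and 508 CPM, and Ldha, the lactate dehydrogenase subunit that favors lactate, at 3453, 2571 and 1125 CPM. Gpd1, a glycerol phosphate shuttle enzyme, was at 137, 87.9 and 22.4 CPM. Against Myh2-dominant droplets 14 genes were at least 2-fold higher and 2 lower (median 1.13), the lower ones being Gys1, the muscle glycogen synthase (74.8, 132 and 166 CPM), and Pfkfb1, whose interval includes 0 (-2.01 to 0.01). Under TMM and DESeq2 scaling 17 of 24 were at least 2-fold higher and 0 lower, so that both lower calls depend on the scaling.

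Genes of oxygen storage and fatty acid use were lower in members without exception among the 20 tested, against both classes. Of these, 13 were at least 2-fold lower than in Myh1-dominant droplets (median -1.20) and 19 than in Myh2-dominant droplets (median -2.02), and none was higher. Mb, the oxygen store myoglobin, was at 884 CPM (841 to 929) in members, 7435 CPM (7255 to 7619) in Myh1-dominant and 12498 CPM (12172 to 12830) in Myh2-dominant droplets, with log2 ratios of -3.07 (-3.15 to -2.99) and -3.82 (-3.90 to -3.74). The median member had 331 CPM of Mb (quartiles 0 and 1192) and the median Myh1-dominant droplet 6577 CPM (4318 and 9322).

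Fabp3, the muscle fatty acid-binding protein, followed at 406, 2361 and 8514 CPM, and Cd36, the fatty acid transporter, at 7.37, 93.7 and 217 CPM. Cd36 is also abundant in endothelial cells. Of the 6 endothelial markers, members and Myh1-dominant droplets held 0 UMIs and Myh2-dominant droplets 5. Lpl, the lipoprotein lipase, was at 12.5, 136 and 338 CPM. Ldhb, the lactate dehydrogenase subunit of oxidative tissue, had the widest gap of this list. It had 10 UMIs in 7 members, 208 UMIs in 47 Myh1-dominant and 764 UMIs in 48 Myh2-dominant droplets, that is 5.67, 240 and 1709 CPM, with log2 ratios of -5.41 (-6.49 to -4.50) and -8.24 (-9.30 to -7.35). After thinning, 0 of 249 members held an Ldhb UMI (up to 1.47%), against 15% of Myh1-dominant, 68.1% of Myh2-dominant and 5.86% of non-fibre droplets.

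Mitochondrial enzymes encoded in the nucleus were lower by smaller steps. All 32 genes of the citrate cycle and respiratory chain were below 0 against both classes, with 4 at least 2-fold lower than in Myh1-dominant (median -0.76) and 18 than in Myh2-dominant droplets (median -1.02). Cycs, the electron carrier cytochrome c, was at 1206, 2284 and 2963 CPM, and Slc25a4, the adenine nucleotide carrier of the inner membrane, at 7575, 11588 and 11965 CPM. The exception in size was Idh2, the NADP-dependent isocitrate dehydrogenase of mitochondria, at 33.4, 148 and 1206 CPM (log2 ratios -2.15, -2.62 to -1.69, and -5.17, -5.58 to -4.78). Mdh1, the cytosolic malate dehydrogenase of the malate shuttle, was at 395, 1155 and 2149 CPM. Under TMM and DESeq2 scaling the count against Myh2-dominant droplets was 11 of 32, with all 32 still below 0.

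**Figure D2:**
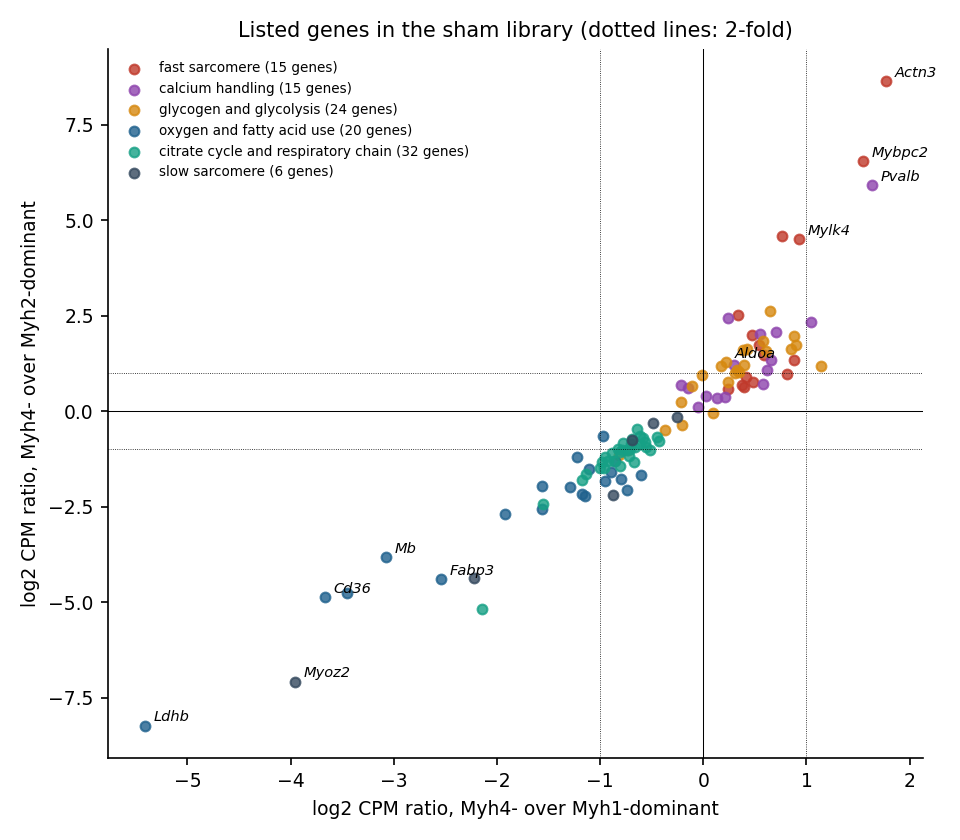
Each point is a gene of 1 of 6 lists, with its log2 ratio of Myh4- over Myh1-dominant droplets on the x axis and of Myh4- over Myh2-dominant droplets on the y axis, both in the sham library. The dotted lines mark 2-fold, and both axes share the Myh4-dominant level, so the position along the diagonal is not 2 independent measurements. Genes of oxygen and fatty acid use all lie in the lower left, and those of the fast sarcomere all in the upper right.

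The phosphate reserve was represented by 5 genes without a common direction, 1 of them at least 2-fold lower than in Myh1-dominant droplets (median -0.10, or 0.02 under TMM) and 1 higher and 1 lower than in Myh2-dominant droplets (median 0.14). Ampd1, the muscle AMP deaminase, was at 393, 207 and 69.3 CPM (log2 ratios 0.92, 0.69 to 1.17, and 2.50, 1.98 to 3.07). Ckmt2, the mitochondrial creatine kinase, was at 326, 1022 and 2436 CPM (-1.65, -1.80 to -1.50, and -2.90, -3.05 to -2.75). Ak1, adenylate kinase, was near level at 985, 927 and 758 CPM.

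Among 18 tested regulators of fibre type, 3 were at least 2-fold higher in members than in Myh1-dominant droplets and 1 was lower (median 0.42). Beside Mss51, these were the transcription factors Maf and Mafa, of a family known to switch on Myh4. Maf was at 186, 76.3 and 38.0 CPM (log2 ratios 1.29, 0.90 to 1.69, and 2.29, 1.59 to 3.09), and Mafa at 59.0, 11.6 and 8.95 CPM (2.35, 1.41 to 3.45, and 2.72, 1.32 to 4.62). Mafa had UMIs in 63 members and Maf in 134, so neither rested on a few droplets. Vgll2, a TEAD cofactor, was lower, at 38.0, 131 and 246 CPM (-1.78, -2.24 to -1.33, and -2.70, -3.16 to -2.24). Tbx15, a factor tied to fast glycolytic fibres, was at 113, 76.3 and 33.5 CPM. Against Myh2-dominant droplets 6 of 16 regulators were higher and 2 lower (median 0.08).

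The enzymes that make and recycle polyamines, a list added after their values had been seen, held some of the clearest differences between the Myh4- and Myh1-dominant classes. Amd1, which supplies the aminopropyl donor, was at 579, 106 and 47.0 CPM (log2 ratios 2.44, 2.13 to 2.77, and 3.62, 3.00 to 4.32) and had UMIs in 206 of 288 members. Smox, the spermine oxidase, was at 196, 25.4 and 6.71 CPM (2.95, 2.32 to 3.64, and 4.87, 3.31 to 7.15) with UMIs in 118 members. Odc1, which makes putrescine, was at 189, 89.0 and 40.3 CPM, and Sms, the spermine synthase, at 382, 172 and 53.7 CPM. Sat1, which acetylates polyamines for breakdown, was lower at 9.64, 43.9 and 22.4 CPM. Of 9 genes tested, 4 were at least 2-fold higher than in Myh1-dominant droplets and 1 lower (median 0.43), and against Myh2-dominant droplets 5 were higher and 2 lower (median 1.48).

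Other lists added after their values were seen held 1 gene each that stood out from Myh1-dominant droplets by droplets as well as by UMIs. Prkag3, the muscle-specific gamma subunit of AMPK, had 149 UMIs in 87 members, 16 UMIs in 12 Myh1-dominant droplets and none in Myh2-dominant droplets (log2 ratio 2.19, 1.44 to 3.04, and at least 3.65). The other AMPK subunits tested against Myh1-dominant droplets, Prkaa2, Prkab2 and Prkag1, stayed under 2-fold. Against Myh2-dominant droplets 3 of the 4 subunits tested, Prkag3 among them, were at least 2-fold higher (median 1.64). Gamt, the second enzyme of creatine synthesis, was at 70.3, 11.6 and 4.47 CPM with UMIs in 73 members (2.60, 1.68 to 3.70, and 3.97, 2.09 to 7.04). Gatm, the first enzyme, had 42 UMIs in members and none in the other classes, but all 42 lay in 1 droplet.

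Beyond the lists, the 10 genes with the firmest difference in each direction were taken for each comparison. Against Myh1-dominant droplets the higher ones with UMIs in many members were Odf3l2 (259 UMIs in 102 members, 11 UMIs in 4 Myh1-dominant droplets, log2 ratio 3.53, 2.67 to 4.55) and Gdap1 (43 UMIs in 31 members and 1 UMI, 4.40, 1.84 to 9.73), beside Smox, Amd1 and Mss51. Gatm, in 1 member, and the haemoglobin genes Hba-a1, Hba-a2 and Hbb-bs were also among them. Against Myh2-dominant droplets the higher genes included Dupd1, a muscle phosphatase gene (185 UMIs in 86 members, 26 in Myh1-dominant and 0 in Myh2-dominant droplets, log2 ratio at least 3.97), and Ighm (151, 21 and 0 UMIs, in 61 members, at least 3.67). Ighm encodes the immunoglobulin heavy chain of B cells, and the immune marker list as a whole had 5 UMIs in sham members.

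On the lower side against Myh1-dominant droplets were Ldhb, Myoz2, Mb, Malat1, 9430073C21Rik and the antisense RNA gene Gm15543 (5, 46 and 87 UMIs). Postn, Lyz2, Apoe and Gm26917 completed the 10, but the first 3 had 23 of 23, 27 of 27 and 60 of 61 of their Myh1-dominant UMIs in a single droplet, and Gm26917 had 34 of 44. Against Myh2-dominant droplets they were Myl2, Ldhb, Myl3, Myoz2, Idh2, Gm15543, Bdh1, a mitochondrial ketone body enzyme (0, 7 and 42 UMIs), Fxyd6, a regulator of the sodium pump (14, 56 and 234 UMIs), Pcp4l1 (6, 6 and 97 UMIs) and BC048679 (0, 18 and 28 UMIs).

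The 3 adult fast myosin genes lie side by side on chromosome 11 (GRCm38) in the order Myh2 (67171027 to 67197517), Myh1 (67200052 to 67224575) and Myh4 (67238029 to 67260446), all on the plus strand. Noncoding genes beside them, a list added after its values had been seen, differed between the classes. Myhas, annotated as antisense on the minus strand from 67211256 to 67237573, overlaps Myh1 over 13320 bases with 9 pairs of overlapping exons. Read on its own strand, it starts 455 bases from Myh4 and runs away from it. It had 207 UMIs in 111 members, 21 UMIs in 15 Myh1-dominant droplets and 1 UMI in Myh2-dominant droplets, that is 117, 24.3 and 2.24 CPM (log2 ratios 2.27, 1.62 to 3.00, and 5.71, 3.22 to 11.0).

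9430073C21Rik, antisense on the minus strand from 67195680 to 67199234, shares 1838 bases with Myh2. On its own strand it starts 817 bases from Myh1 and runs away from it. It had 0 UMIs in members, 38 UMIs in 19 Myh1-dominant droplets and 0 in Myh2-dominant droplets, a log2 ratio of members over Myh1-dominant droplets of -4.69 or lower. The lincRNA gene 2310065F04Rik, from 67112461 to 67120080 and so upstream of Myh2, had 647, 227 and 14 UMIs (log2 ratios 0.48, 0.26 to 0.71, and 3.55, 2.79 to 4.43). The strand setting of the counting is not given in the sources used here, so reads of an antisense gene and of the myosin it overlaps cannot be fully told apart. Myhas had 1 UMI in the non-fibre droplets.

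The promoters of the 3 genes are shown because the classes are defined by which of them is used. The sequences are the 250 bases before each RefSeq start (GRCm38.p6, plus strand, chr11:67237562-67237811 for Myh4, chr11:67199852-67200101 for Myh1 and chr11:67170777-67171026 for Myh2). For Myh4 and Myh1 the RefSeq start differs from the gene start given here from the Ensembl annotation. Capitals mark the longest run that all 3 share, which is 20 bases long.
Myh4: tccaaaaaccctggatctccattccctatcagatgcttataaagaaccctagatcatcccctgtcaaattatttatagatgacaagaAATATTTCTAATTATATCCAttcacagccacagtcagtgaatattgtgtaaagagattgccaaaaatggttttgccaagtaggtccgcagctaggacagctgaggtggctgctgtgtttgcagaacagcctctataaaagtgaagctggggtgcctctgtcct
Myh1: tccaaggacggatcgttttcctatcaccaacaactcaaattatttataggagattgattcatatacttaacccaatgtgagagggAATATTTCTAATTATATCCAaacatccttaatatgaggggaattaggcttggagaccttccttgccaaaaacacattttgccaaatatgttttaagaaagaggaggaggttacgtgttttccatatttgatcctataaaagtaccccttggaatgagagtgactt
Myh2: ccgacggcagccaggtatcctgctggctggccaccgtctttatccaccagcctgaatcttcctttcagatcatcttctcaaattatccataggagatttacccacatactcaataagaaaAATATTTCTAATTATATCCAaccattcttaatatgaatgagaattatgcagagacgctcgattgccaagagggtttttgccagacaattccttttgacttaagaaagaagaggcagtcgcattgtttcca
The shared run begins 163, 165 and 130 bases before the start of Myh4, Myh1 and Myh2, and of 32851 promoters of the same kind these 3 were the ones that held it. The letters TATAAA last stand 31 bases before the start in Myh4 and 32 bases before it in Myh1, and neither strand of the Myh2 window holds them, as against 12.4% of all promoters searched on both strands. In Myh4 and Myh1 these letters lie farther past the start of the shared run than the Myh2 window reaches. The matching place in Myh2 was therefore not searched, and its window cannot show whether the letters are absent there. The letters CANNTG occur 2 times in the Myh4 window and not in the Myh1 or Myh2 window, against 66.2% of all promoters with at least 1 match. Words of 8 letters shared between windows numbered 30 for Myh4 and Myh1, 21 for Myh4 and Myh2, and 28 for Myh1 and Myh2. A match of letters is a description of the sequence and not a bound site.

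Sham droplets with at least 10 myosin UMIs were arranged by the Myh4 share of the 3 myosins, across the class borders. There were 68 droplets with no Myh4, 12 with a share over 0% and up to 10%, 26 up to 50%, 21 up to 80%, 42 up to 95%, 32 over 95% but under 100%, and 129 at 100%. The bin with no Myh4 held 43 Myh1-dominant and 25 Myh2-dominant droplets, and the next held 9 and 3. All 26 droplets of the bin up to 50% were Myh1-dominant. From the bin with no Myh4 to the bin up to 50%, the Myh4 share and the part of Myh2-dominant droplets change together. Their parts in the levels of these bins cannot be told apart. From the bin up to 50% onward no droplet was Myh2-dominant. Pvalb was at 728, 2271, 3184, 5801, 7003, 7760 and 6461 CPM along these bins, and Actn3 at 339, 828, 1553, 3220, 3426, 3551 and 3667 CPM. Both were higher from bin to bin up to a share of 80% and differed less beyond it. Amd1 was at 49.8 CPM without Myh4, at 171 CPM up to 50% and at 565 CPM in the next bin.

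Genes of the oxidative side differed in the bins between which their levels fell. Ldhb was at 1111, 293 and 202 CPM in the first 3 bins and at 5.33 CPM (0.135 to 29.7) in the next, where Myh1 still gave 20% to 50% of myosin UMIs. Mb was lower step by step, from 10976 to 7944, 4535, 1903, 1108 and 410 CPM, and was at 629 CPM in the droplets with Myh4 alone. Fhl1, a LIM domain gene of the sarcomere, was at 2078 CPM (1973 to 2187) without Myh4 and at 1211 CPM (1004 to 1448) in the next bin. It was then at 1222 CPM up to 50%, at 965 CPM (830 to 1116) up to 80% and at 296 CPM up to 95%. Ldhb and Fhl1 were both lower in the bin over 0% to 10% than in the bin with no Myh4. Myh2-dominant droplets were 25 of 68 in the bin with no Myh4 and 3 of 12 in the next. Whether this first step goes with the Myh4 share or with those droplets cannot be told apart. The later step down of Ldhb and Fhl1 came in different bins. The bins hold 12 to 129 droplets, and the later step of Fhl1 rests on 21 and 42 of them.

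**Figure D3:**
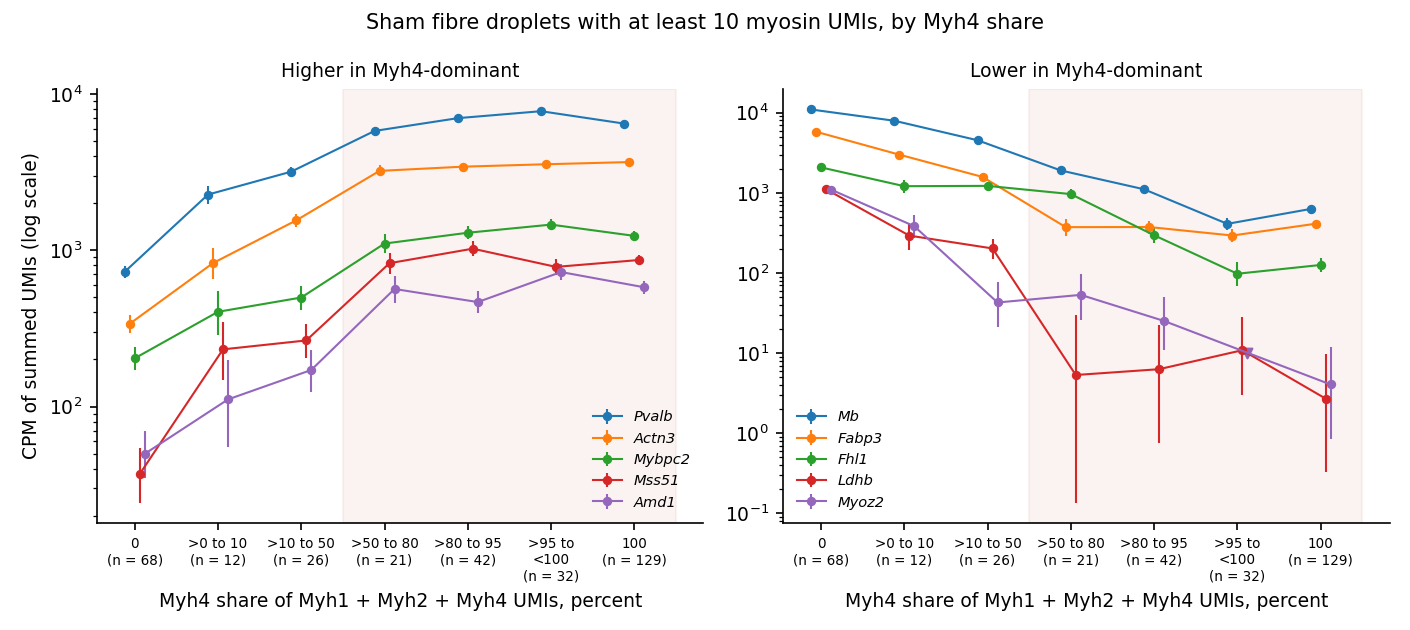
Levels (CPM of summed UMIs, log scale, exact 95% Poisson intervals) in sham droplets binned by the Myh4 share of the 3 myosins, with the number of droplets in each of the 7 bins and the Myh4-dominant range shaded. The fast genes Pvalb and Actn3 are near their level in Myh4-only droplets from the bin up to 80%, and Ldhb is at 202 CPM just outside and 5.33 CPM just inside the shaded range.

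Members had between 519 and 72463 UMIs, and the level of Myh4 in the 155 sham members of at least 3000 UMIs ran from 469 to 29532 CPM with a median of 4423 CPM. Its Spearman correlation with depth was 0.0053. Of 361 genes with at least 500 UMIs in these members, those that varied most closely with Myh4 were Ttn (rho = 0.57), Mybpc2 (0.49), Neb (0.47) and Pvalb (0.40), while Mss51 (0.05) and Actn3 (0.13) hardly varied with it and the median gene was at -0.01. All points come from 1 library and share its depth and capture, so these values are a description of 155 droplets.

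A few members held RNA that the others lacked. Of the Schwann cell markers, 27 of 28 UMIs of Mbp and 16 of 16 of Ncmap came from 1 member with 10614 UMIs, and the same droplet held 448 of the 489 Malat1 UMIs, all 42 of Gatm and 106 of the 210 of Mt1. Haemoglobin UMIs came mainly from a pair of members, 222 and 164 of the 397 of Hba-a1. Another member, with 16986 UMIs and a shared barcode, held 378 of the 632 UMIs of Csrp3, 79 of 143 of Ankrd1 and 1465 of 6716 of Cryab. In 3 members the markers of other cell types took at least 1% of UMIs. Over the sham members the tenocyte list had 199 UMIs with 2 of 5 genes at 0, Tnmd among them, and the MuSC list 93 with 6 of 11 at 0. These UMIs were spread over 92 and 54 members, with at most 22 and 12 in 1 member. The other lists were sparser. The fibro-adipogenic list had 12 UMIs with 3 of 7 genes at 0, Pdgfra among them. The mural list had 7 with 3 of 5 at 0, Rgs5 among them. The immune list had 5 with 4 of 7 at 0, Ptprc among them, and the endothelial list 0. The erythroid list had 1096 and the Schwann list 179 UMIs, largely from the droplets named.

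Long nuclear RNA was nearly absent from members. Malat1, which stays in the nucleus, had UMIs in 30 of 288 members, and after thinning in 2.81% of 249 members, 7.5% of Myh1-dominant, 6.38% of Myh2-dominant and 93.0% of non-fibre droplets. Its level was 277 CPM in members and 24902 CPM in non-fibre droplets. Without the deepest contributor of each class the log2 ratio of Malat1 over Myh1-dominant droplets went from -3.17 to -6.11, so its value between fibre classes rests on single droplets.

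Stress and load genes were lower in members than in Myh1-dominant droplets, with 16 of 16 tested below 0 under CPM, 8 of them at least 2-fold (median -0.96). Under TMM scaling 15 of 16 were below 0 and 6 passed 2-fold. Fos, an immediate early gene, was at 146, 453 and 300 CPM (log2 ratio over Myh1-dominant droplets -1.63, -1.86 to -1.40), and Atf3, a stress transcription factor, at 36.3, 169 and 62.6 CPM. Hspb6, a small heat shock protein of muscle, was at 874, 1808 and 2789 CPM. Junb, at 103, 213 and 125 CPM, went from -1.04 to -0.39 without the droplet that contributed most in each class. Fos, Jun, Junb and Atf3 are known to be induced by tissue digestion, and the non-fibre droplets held 1969, 1188, 1307 and 594 CPM of them. The part of dissociation in these values was not tested. Against Myh2-dominant droplets 2 of 16 were higher and 6 lower (median -0.54).

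Of 13 growth and atrophy genes tested, 1 was higher than in Myh1-dominant droplets and 1 lower (median 0.10), and against Myh2-dominant droplets 4 of 12 were higher and 2 lower (median 0.52). Mstn, the growth inhibitor myostatin, was at 48.8, 24.3 and 4.47 CPM (log2 ratios 1.01, 0.30 to 1.77, and 3.45, 1.55 to 6.51) with UMIs in 61 members. Mt1, a metallothionein, was the lower one, with 106 of its 210 UMIs in members from the Malat1-rich droplet. The ubiquitin ligases Fbxo32 and Trim63, known for muscle atrophy, were at 111, 119 and 105 CPM and at 148, 99.4 and 116 CPM.

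In the MOV library the 9 members held 13316 UMIs, so that 1 UMI stood for 75.1 CPM. Pvalb was at 2704 CPM (36 UMIs) in Myh4-dominant, 595 CPM (43) in Myh1-dominant and 71.4 CPM (8) in Myh2-dominant droplets, with log2 ratios of 2.18 (1.50 to 2.86) and 5.24 (4.11 to 6.56). Actn3 was at 2403, 885 and 214 CPM (1.44, 0.78 to 2.07, and 3.49, 2.68 to 4.32). Mybpc2 was at 901, 207 and 107 CPM (12, 15 and 12 UMIs) and Mss51 at 526 and 55.3 CPM (7 and 4 UMIs), with no UMI in Myh2-dominant droplets. Mb ran the other way, at 375, 2490 and 3791 CPM (-2.73, -4.37 to -1.48, and -3.34, -4.97 to -2.10). Of 550 genes tested 5.82% were at least 2-fold higher than in MOV Myh1-dominant droplets and 18.7% lower, and of 697 genes 8.18% were higher than in MOV Myh2-dominant droplets and 19.1% lower.

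Of the 36 Pvalb UMIs of the MOV members, 27 lay in the 8 droplets with shared barcodes. Without the shared barcodes Pvalb was at 1143, 573 and 71.7 CPM (9, 41 and 8 UMIs) in the same order of classes, and the log2 ratio over Myh1-dominant droplets was 1.00 with an interval that includes 0 (-0.23 to 2.06). Actn3 was at 2666, 894 and 215 CPM, with log2 ratios of 1.58 (0.79 to 2.31) and 3.63 (2.71 to 4.54), and Mybpc2 at 762, 209 and 108 CPM (6, 15 and 12 UMIs). Mss51 was at 508 CPM and 55.9 CPM (4 UMIs each) and at 0 UMIs, and Mb at 254, 2472 and 3802 CPM (2, 177 and 424 UMIs). All 4 marker genes were highest in the members with the shared barcodes and in the 1 member left without them. The second order rests on 4 to 21 UMIs per gene in that 1 droplet, so it does not describe a class. Of 510 genes 8.24% were then at least 2-fold higher than in Myh1-dominant droplets and 18.8% lower, and of 673 genes 11.1% were higher than in Myh2-dominant droplets and 13.5% lower.

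Between MOV and sham members 20.3% of 4354 genes were at least 2-fold higher in MOV (883 genes) and 2.43% lower (106 genes), but 465 of the higher genes had 1 MOV UMI, 204 had 2, and 26 had 10 or more. In 2289 of the 4354 genes a group had no UMI and was set to the floor of 3 counts. With so few MOV UMIs, a gene at 0 in MOV could be called lower only at a high sham level. The balance of higher and lower calls therefore depends on depth and floor, also without the shared barcodes. With TMM scaling, which moved all ratios down by 0.97, the split was 387 higher and 522 lower, and with DESeq2 size factors, a shift of 1.04, it was 367 and 574. Among genes with many sham UMIs, Pvalb was lower in MOV members (2704 against 6651 CPM, log2 ratio -1.30, -1.81 to -0.83), as were Atp2a1 (1352 against 4860 CPM, -1.85, -2.60 to -1.19), Casq1 (1 UMI, 75.1 against 908 CPM) and Cox8b, a cytochrome oxidase subunit (676 against 2362 CPM, -1.81, -2.94 to -0.88). Without the shared barcodes 19.6% of 3750 genes were higher (736 genes) and 2.24% lower (84 genes), and the log2 ratios were -2.54 for Pvalb, -1.68 for Atp2a1, -2.72 for Casq1 and -3.22 for Cox8b. Sln, the inhibitor of the calcium pump, was the firmest higher gene, with 18 UMIs against 5 (1352 against 2.83 CPM, 8.90, 7.41 to 10.7), and all 18 lay in the member with its own barcode, as did 31 of 33 UMIs of Mt1 and 15 of 16 of Mt2.

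The MOV member with its own barcode was set beside the 155 sham members of at least 3000 UMIs. It held 48 Myh4 and 38 Myh1 UMIs and no Myh2 UMI, and only 2 of the 155 reached its Myh1 level of 4824 CPM. Its Actn3 (2666 CPM), Mybpc2 (762 CPM) and Mss51 (508 CPM) lay within the sham range. Pvalb, at 1143 CPM (522 to 2169, 9 UMIs), was under the lowest sham member at 1649 CPM, but its counting interval reaches into that range. Tcap, the titin cap of the Z-disc, was at 381 CPM (78.5 to 1113, 3 UMIs) against a sham minimum of 982 CPM, with the same limit.

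Several genes, picked after their values were seen, were higher in this droplet than in nearly all sham members. Sln was at 2285 CPM (1354 to 3612) against a sham maximum of 606 CPM. Csrp3, a mechanosensor of the Z-disc, was at 4062 CPM and reached by 2 of 155 sham members, Hspb1 at 14473 CPM by 3, Mustn1 at 7236 CPM by 6, Ankrd2 at 1016 CPM by 2 and Mt1 at 3936 CPM by 1. The sham medians were 0 CPM for Csrp3, Ankrd2 and Mt1, 639 CPM for Hspb1 and 195 CPM for Mustn1. In the 14 Myh1-dominant and 7 Myh2-dominant MOV droplets with their own barcodes, Csrp3 was at 11159 and 11245 CPM. The values describe 1 droplet, and whether its difference from sham members belongs to MOV, to its Myh1 content or to that droplet cannot be told apart.

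**Figure D4:**
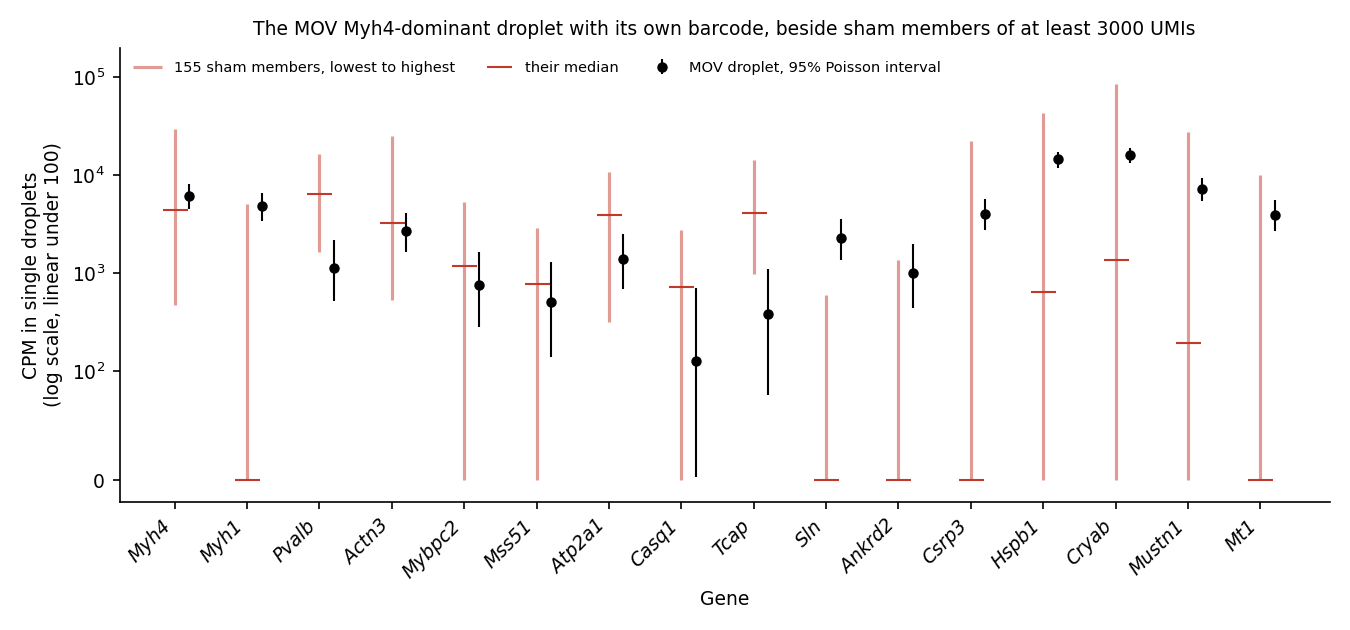
The MOV member with its own barcode (points, exact 95% Poisson intervals) beside the range and median of the 155 sham members with at least 3000 UMIs (lines and ticks), in CPM. Sln lies above and Pvalb and Tcap lie below the full sham range, and Actn3, Mybpc2 and Mss51 lie within it.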

How the data were processed

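Droplet RNA of 2 libraries (sham and MOV, 1 each) was measured with a 3′ single-cell kit. The authors made the deposited UMI counts per gene and barcode with Cell Ranger 6.0.0 on mm10, and the submitters' processing notes also name R 4.0.2 and Seurat 4.0.2. The counts had not been normalized, and the strand setting is not given in the sources used here. Free RNA in droplets and 3′ capture bear on low levels. The members and gene lists were chosen with earlier results of these data known.

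UMIs were summed over the droplets of a class and divided by all UMIs of the class (Python 3.11.15, numpy 2.4.6, scipy 1.17.1). Levels have exact Poisson and ratios exact conditional 95% intervals, for counting error only. Genes with at least 20 UMIs over both classes were compared and called at 2-fold. A class at 0 was set to a floor of 3 counts over the class, giving a bound. No test was made. No doublet caller was run, and leaving out the deepest 5% of droplets stood in for it. Scaling alternatives used edgeR 4.0.16 and DESeq2 1.42.0 (R 4.3.3) for factors only. The calculation was tested on simulated class sums drawn with counting error only. They held no spread between droplets, so they cannot show how the ratios and intervals behave under such spread. Named genes were all genes of the lists, and the 10 higher and 10 lower genes past 2-fold whose interval lay farthest from no change in each comparison. A few of the genes so named are not reported here.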

Additional observations from a re-analysis of the deposited data

Results flagged for a closer look

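A few genes differed at least 2-fold in opposite ways in the sham and MOV libraries, and none of these differences between libraries was tested. The MOV side rests on 9 droplets, 8 of them with shared barcodes. For Casq1 the log2 ratio of Myh4- over Myh1-dominant droplets was 1.04 in sham and -2.08 in MOV (1 against 23 UMIs, -7.45 to 0.54), and over Myh2-dominant droplets 2.34 and -1.83 (1 against 30 UMIs, -7.18 to 0.76). For Actc1, the cardiac actin, the ratio over Myh1-dominant droplets was 1.71 in sham and -1.88 in MOV (2 against 40 UMIs, -4.98 to 0.07). Of its 100 UMIs in sham members 48 lay in 1 droplet, without which the sham ratio was 0.79 and no longer 2-fold. For Mt1 it was -1.15 and 2.03 (33 against 44 UMIs, 1.33 to 2.71), with 31 of the 33 UMIs in the MOV member with its own barcode and 106 of the 210 sham UMIs in 1 member, without which the sham ratio was -2.16. Over Myh2-dominant droplets Tnfrsf12a, a receptor of the TNF family, was at 1.40 in sham and -1.45 in MOV (2 against 46 UMIs, -4.54 to 0.49). Ankrd1, a load-responsive muscle gene, was at 3.18 and -2.49 (3 against 142 UMIs, -4.79 to -0.91), with 79 of its 143 sham UMIs in 1 member, without which the sham ratio was 2.03. Casq1 over Myh1-dominant droplets went to 0.96 without its top sham member, just under 2-fold. Without the shared barcodes the MOV ratios over Myh1-dominant droplets were -1.34 (-6.70 to 1.28) for Casq1, -1.14 (-4.23 to 0.81) for Actc1 and 2.68 (1.97 to 3.37) for Mt1. Over Myh2-dominant droplets they were -1.08 (-6.43 to 1.51) for Casq1, -0.70 (-3.79 to 1.23) for Tnfrsf12a, which is under 2-fold, and -1.74 (-4.04 to -0.16) for Ankrd1. Of the 545 genes compared with Myh1-dominant droplets in both libraries, 15 differed the same way and 5 opposite ways, and of the 685 compared with Myh2-dominant droplets 61 and 11 did.

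Outside the members, 4 sham droplets met every other limit but had 20% or more mitochondrial UMIs. They held 6658 UMIs in all, with Pvalb at 1802 CPM (12 UMIs), Actn3 at 2854 CPM (19 UMIs) and Mb at 3154 CPM (21 UMIs).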

How the results depend on the processing

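No paired analysis was possible because each condition has 1 library. Over 17 settings 847 values were recomputed. None of the single-gene ratios followed (18 genes over each class, 12 for MOV over sham) changed sign, with 622 inside the 95% interval of the reported ratio and 87 outside it. The settings with a minimum of 1 or of 50 UMIs only choose which genes are kept. They could not move a single-gene ratio, and their values are among the 622. Of the counts and shares, 103 stayed within 1.5 times the reported count or inside the 95% interval of the share, and 35 did not. The balance of calls did turn with the scaling, from 42.3% of calls higher over Myh1-dominant droplets to 56.7% (TMM) and 53.9% (DESeq2), and from 89.3% to 42.6% and 39.0% for MOV over sham members. The cause was not tested except where the setting itself changes what is counted. Requiring 10 myosin UMIs gave a sham share of 67.9% and 3 MOV members. Requiring 1000 UMIs left 1 MOV member (5.56%), and leaving out shared barcodes, a choice made after seeing the data, also 1 (4.55%). Counts of genes over Myh1-dominant droplets were 697 higher and 1774 lower with a minimum of 1 UMI, 93 and 155 with 50 UMIs, 657 and 952 at 1.5-fold, 46 and 59 at 4-fold, and 626 higher by the mean of single-droplet CPM. Over Myh2-dominant droplets they were 997 and 1870 with 1 UMI, 299 and 368 with 50 UMIs, 1122 and 1254 at 1.5-fold, 198 and 120 at 4-fold, and 404 (TMM) and 405 (DESeq2) lower. For MOV over sham members they were 387 and 522 by TMM, 367 and 574 by DESeq2, 467 higher with 50 UMIs, and 382 and 10 at 4-fold. The lower count alone was 235 at 1.5-fold, 536 by the mean of single-droplet CPM and 48 where the leading myosin had to exceed 2 times each other. Depth limits the MOV members most, where 1 UMI stands for 75.1 CPM.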
